A study of Drosophila melanogaster with 2 samples.

Results

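Of the 30000 peaks that the authors called on both replicates together, 115 (0.383%) are described here. These peaks had their summit on chromosome 4 or in the DNA next to the centromere on 2L, 3L, 3R or X. They are the peaks with a summit anywhere on chromosome 4 (52 peaks), beyond 22 Mb of 2L (11), beyond 23 Mb of 3L (5), before 4.2 Mb of 3R (17) or beyond 22.6 Mb of X (30), on assembly dm6. The rule uses position and no signal. It sets no border on 2R, so the centromere side of 2R is counted in the rest of the arms. The data come from chromatin immunoprecipitation followed by sequencing (ChIP-seq) on whole Drosophila melanogaster embryos, males and females mixed, which were 6 to 18 h old by their source name, while the age field holds another value. Both samples came from a transgenic line that stably produces the protein encoded by CG15269 with GFP at its C-terminus. The sample descriptions name an antibody against GFP for the precipitation, and the antibody field names CG15269. There was 1 group with 2 biological replicates, numbered 2 and 3, and no untagged or treated counterpart, so no comparison between conditions can be made, and cell types of the embryo cannot be told apart.

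Chromosome 4 is the small dot chromosome of Drosophila. It is packaged for most of its length with the heterochromatin protein HP1a and with methylated histone H3 lysine 9, yet its genes are active, and a protein specific to this chromosome coats it. Pericentric DNA carries the same histone mark, is made largely of transposable elements and satellite repeats, and holds genes that depend on this surrounding for their expression. The DNA transposon 1360 and the short element INE-1 are spread over both kinds of DNA, and 1360 copies are known to favour silencing of reporter genes placed beside them.

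The strongest peak of each of the 5 regions whose summit window holds no untranslated region is shown first, since these are the sequences on which the fusion protein was recovered best outside transcript leaders. Each is the summit with 50 bases on either side, read from the RefSeq sequence of genome release 6, plus strand, with runs of at least 6 A or T in capitals.
chromosome 4, chr4:424775-424875: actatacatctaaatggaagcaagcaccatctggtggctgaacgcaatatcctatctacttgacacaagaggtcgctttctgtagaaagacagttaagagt
pericentric 2L, chr2L:22139604-22139704: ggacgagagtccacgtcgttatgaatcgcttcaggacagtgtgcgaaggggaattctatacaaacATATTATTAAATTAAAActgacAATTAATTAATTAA
pericentric 3L, chr3L:26013201-26013301: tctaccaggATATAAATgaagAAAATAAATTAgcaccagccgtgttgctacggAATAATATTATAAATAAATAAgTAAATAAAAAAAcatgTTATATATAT
pericentric 3R, chr3R:4179133-4179233: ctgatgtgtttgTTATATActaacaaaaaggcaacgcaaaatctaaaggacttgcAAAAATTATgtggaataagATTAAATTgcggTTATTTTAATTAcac
pericentric X, chrX:22631819-22631919: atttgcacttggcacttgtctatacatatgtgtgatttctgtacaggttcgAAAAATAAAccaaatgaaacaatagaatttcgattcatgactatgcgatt
The A+T contents of these windows were 58.4% (chromosome 4), 65.3% (2L), 76.2% (3L), 71.3% (3R) and 67.3% (X). The window of chromosome 4, which belongs to the strongest of all 115 peaks, holds no run of 6 A or T, whereas each of the other 4 holds at least 1.

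The fusion protein was recovered far less often per length of DNA in these regions than elsewhere on the arms. Chromosome 4 had 39.1 peaks per Mb of sequence without N (49.6 in the list of replicate 2 and 41.3 in that of replicate 3), and pericentric DNA had 5.42 (4.64 and 8.17). The rest of the 6 arms, with all of 2R in it, had 248 peaks per Mb in the pooled list. The density of the rest was therefore 6.34 times that of chromosome 4 and 45.7 times that of pericentric DNA.

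Much of this DNA is repeated, and reads from repeated DNA cannot be placed at 1 position. A position was counted as uniquely readable when the 31 bases starting there occur once in the assembly on either strand. This held for 84.2% of chromosome 4, 39.7% of the pericentric DNA and 92.0% of the rest. The pericentric shares ran from 33.8% on 3R and 39.7% on 3L to 48.8% on 2L and 51.8% on X. Per Mb of uniquely readable sequence, chromosome 4 had 46.4 peaks (58.9 and 49.1 in replicates 2 and 3), pericentric DNA had 13.6 (11.7 and 20.6), and the rest had 269. The rest exceeded chromosome 4 by 5.80 times in the pooled list, by 4.57 times in replicate 2 and by 5.48 times in replicate 3. For pericentric DNA the ratios were 19.7, 23.0 and 13.1. The gap between pericentric DNA and the rest was thus smaller per uniquely readable length than per length, and in both scales and all 3 lists both regions stayed below the rest. The sources used here do not say how the authors treated reads with several positions, and the part of read placement in the remaining gap was not tested.

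**Figure D1:**
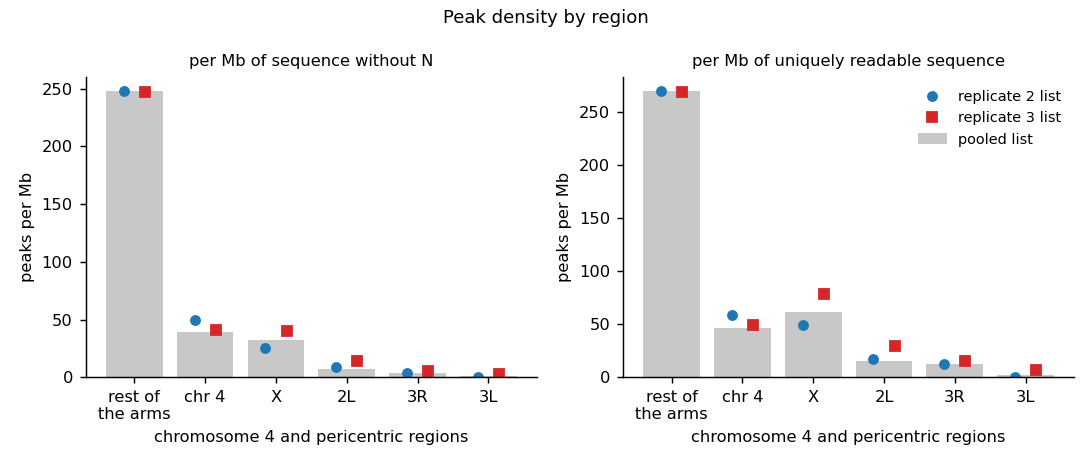
Peaks per Mb of sequence without N (left) and per Mb of uniquely readable sequence (right) in the rest of the arms, on chromosome 4 and in the pericentric parts of X, 2L, 3R and 3L. Grey bars are the pooled list, and circles and squares are the lists of replicates 2 and 3. Per uniquely readable Mb the pooled list holds 269 peaks in the rest, 46.4 on chromosome 4, 61.6 on X and 2.52 on 3L.

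The pericentric regions were not alike. Pericentric X had 61.6 peaks per uniquely readable Mb (49.3 in replicate 2 and 78.1 in replicate 3), above the value of chromosome 4 in the pooled list and in replicate 3 but below it in replicate 2. Pericentric 2L had 14.9 (17.6 and 29.8) and 3R had 12.0 (12.0 and 14.9), so 2L was above 3R in all 3 lists. Pericentric 3L had 2.52, from 5 peaks on 1.98 uniquely readable Mb, and its replicates were unlike. The list of replicate 2 held no peak there and that of replicate 3 held 14. Each list is limited to 30000 peaks, so a place without a peak may hold binding weaker than the weakest listed peak.

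On 3R and 2L the peaks sat close to the border with the rest of the arm, and on X and 3L they did not. On 3R all 17 peaks lay within 200 kb of it, 140 per uniquely readable Mb against 299 in the 1 Mb outside, and the remaining 4 Mb, with 1.29 uniquely readable Mb, held 0 peaks in the pooled list and 0 in each replicate list. The stretch from the start of the 3R assembly to the first pooled peak was 4.08 Mb long (4.13 Mb in replicate 2 and 4.05 Mb in replicate 3). On 2L the first 200 kb inside held 10 of the 11 peaks, 53.6 per uniquely readable Mb against 177 in the 1 Mb outside. Farther in it was 1.82 in the pooled list, 0 in replicate 2 and 9.12 in replicate 3, below the first 200 kb in each list (69.6 and 91.0 in the replicates). On X the density was 119 in the 1 Mb outside (119 and 115 in replicates 2 and 3), on only 0.253 uniquely readable Mb. This was already below the 269 of the rest as a whole. Inside it was 63.3 in the first 200 kb and 61.4 farther in. The replicates went apart inside, with 28.8 and then 61.4 in replicate 2, and 80.6 and then 77.6 in replicate 3. No step down at 200 kb was thus seen in both. From 500 to 900 kb inside, no bin of 100 kb held a peak in any list, with 10.1 to 36.7 uniquely readable kb per bin. On 3L it was 183 in the 1 Mb outside, 0 in the first 200 kb inside and 2.69 farther in, and no pooled peak lay in the first 1976 kb.

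The borders are coordinates of the rule, and the distances of the nearest peaks do not measure how sharp a limit is. On 3R the nearest summits lay 12.7 kb inside (signal 62.3) and 11.9 kb outside (signal 62.8), and on X 31.9 kb inside (276) and 80.2 kb outside (59.98). On 2L they lay 133 kb inside (68.8) and 113 kb outside (45.9). On 3L the nearest inner summit was 1976 kb away (36.6), while the nearest outer one was at 89.8 kb (169). Moving all 4 borders 500 kb toward the centromere left 58 of the 115 peaks and a pericentric density of 1.81 per uniquely readable Mb.

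**Figure D2:**
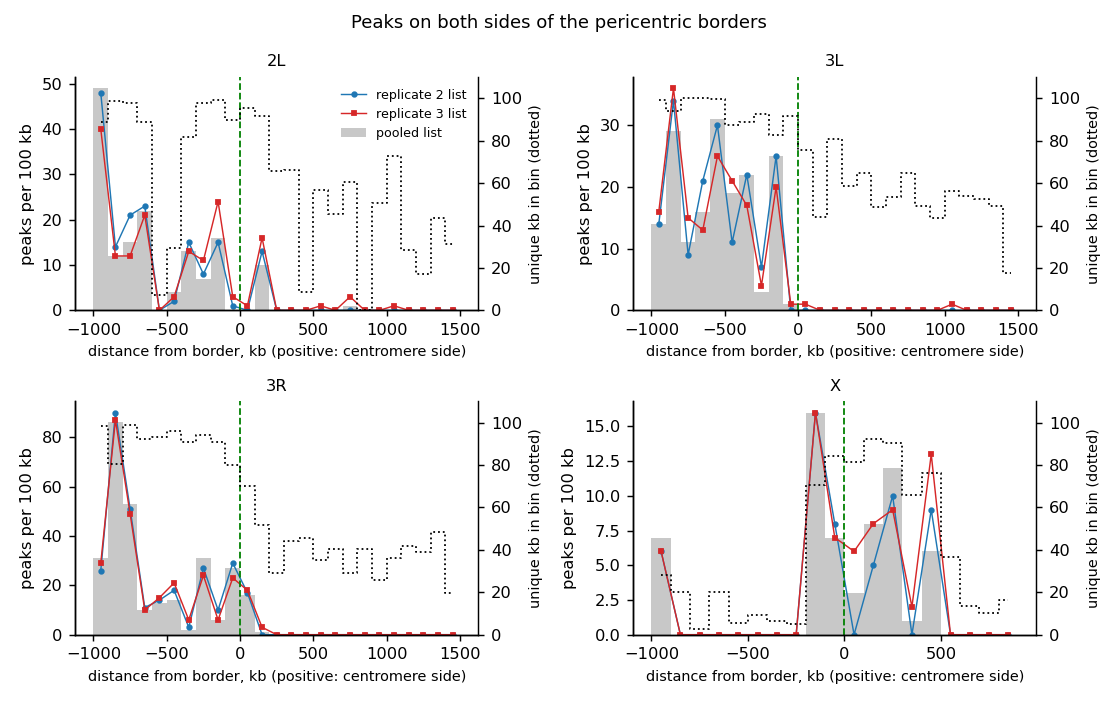
Number of peaks in bins of 100 kb from 1000 kb outside to 1500 kb inside each pericentric border (dashed line, positive distances lie on the centromere side), for 2L, 3L, 3R and X. Bars are the pooled list, points are the replicate lists, and the dotted line is the uniquely readable length of each bin on the right axis. On 3R the pooled bins hold no peak beyond 200 kb inside the border, whereas on X peaks continue to about 500 kb inside.

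Signal is the value per peak that the authors deposited, whose scale the sources do not state, and peaks were ranked by it from 1 (strongest) to 30000. The signals of chromosome 4 ran from 35.7 to 934 with a median of 102, those of pericentric DNA from 34.8 to 277 with a median of 56.5, and the median of the rest was 74.9. The median rank was 10908.5 on chromosome 4, 19609 in pericentric DNA and 14998 in the rest. The best ranks were 734 on chromosome 4 and 3699 in pericentric DNA. So the peaks of chromosome 4 were few but on the median stronger than those of the rest, and the pericentric ones were few and on the median weaker.

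The authors also deposited a list limited by the irreproducible discovery rate (IDR), which holds the strongest pooled peaks. Of all pooled peaks 23.4% are in it, and of the 115 peaks 20 were, or 17.4% (exact Clopper-Pearson 95% interval 10.96 to 25.6%). Such intervals cover counting error only and take the peaks as independent of each other. On chromosome 4 the share was 12 of 52, or 23.1% (interval 12.5 to 36.8%), close to the background. In pericentric DNA it was 8 of 63, or 12.7% (5.65 to 23.5%), with 6 on X, 1 on 3L, 1 on 3R and 0 on 2L.

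**Figure D3:**
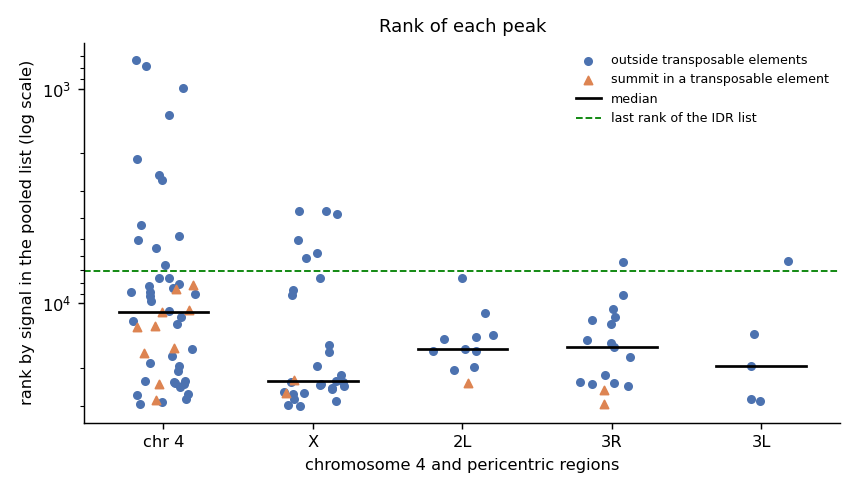
Rank by signal of each of the 115 peaks in the pooled list (log scale, strongest at the top), by region. Triangles have their summit in an annotated transposable element, black lines are medians, and the dashed line is the last rank of the IDR list. Chromosome 4 has 12 peaks above the dashed line, X 6, 3L and 3R 1 each and 2L none, and no triangle lies above it.

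Both replicate lists held a peak overlapping by at least 1 bp at 40 of the 52 peaks of chromosome 4 (76.9%, interval 63.2 to 87.5%) and at 32 of the 63 pericentric peaks (50.8%, interval 37.9 to 63.6%), where the background over all pooled peaks was 73.9%. Taken singly, the list of replicate 2 covered 87.1% of all pooled peaks and that of replicate 3 covered 83.9%. Replicate 2 covered 51 of 52 peaks of chromosome 4 (98.1%) and 39 of 63 pericentric ones (61.9%, interval 48.8 to 73.9%). Replicate 3 covered 41 of 52 (78.8%) and 51 of 63 (81.0%), near its share of all peaks in both. The lower pericentric share was thus that of replicate 2. Neither list covered 5 of the pericentric peaks, 3 on X, 1 on 3L and 1 on 3R. The lists themselves held 66 and 55 peaks on chromosome 4 and 54 and 95 in pericentric DNA for replicates 2 and 3. With 1 group and 2 replicates this gap between replicates cannot be tested.

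Where both lists held a peak, the signals of the replicates ranked the peaks alike on chromosome 4 (Spearman rank correlation across 40 peaks 0.791, against 0.793 over the 22100 matched peaks of the rest) and less so in pericentric DNA (0.599 across 32 peaks). These values are descriptions across peaks. The peaks are not independent of each other, since 38 of the 115 (33.0%) overlap another of the 115 and then can share a replicate peak. The pooled list as a whole has 29.6% of such peaks.

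**Figure D4:**
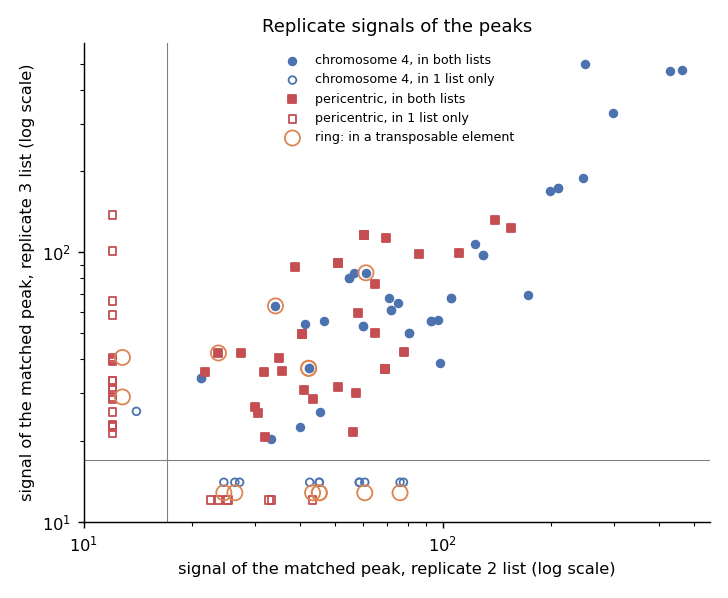
Signal of the overlapping peak in the list of replicate 2 (horizontal) and replicate 3 (vertical), both on log scales, for peaks of chromosome 4 (blue circles) and pericentric DNA (red squares). Open symbols beyond the grey lines had a peak in 1 list and are placed at an arbitrary position on the other axis, and rings mark summits in transposable elements. Chromosome 4 has 11 peaks in the list of replicate 2 alone and 1 in that of replicate 3 alone.

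Of the 12 IDR peaks of chromosome 4, 4 had a TSS within 500 bp, those of PlexA, Sox102F, RpS3A and ci. By location 8 of the 12, with those of PlexA and RpS3A among them, were intergenic. The strongest (4:424670 to 424975, intergenic) had a signal of 934 in the pooled list, 464 in replicate 2 and 473 in replicate 3. Its nearest protein-coding transcription start site (TSS), that of lgs, which encodes a cofactor of Wingless signalling, was 19086 bp away, and the start of the non-coding lncRNA:CR43437 was 1242 bp away. The second (1027117 to 1027462, signal 905, with 429 and 472 in replicates 2 and 3) lay 197 bp from the TSS of PlexA, which encodes a receptor for semaphorin guidance cues. The next in order (807411 to 807820) lay in an intron of Sox102F, 212 bp from a TSS of this gene of a Sox family transcription factor. Its signal was 755, with 249 in replicate 2 and 497 in replicate 3.

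At zfh2, the gene of a zinc finger homeodomain protein, an intergenic peak (497798 to 498030) had a signal of 624, with 298 and 329 in the replicates, and lay 3912 bp from the nearest protein-coding TSS. A pair of intergenic peaks lay 8956 and 11421 bp from the TSS of dati, a zinc finger factor gene, with signals of 439 (245 and 188 in replicates 2 and 3) and 244 (173 and 69.4). The start of mir-9385 was nearer to both, at 3796 and 6261 bp. At RpS3A, which encodes a protein of the small ribosomal subunit, the summit was 53 bp from the TSS, and the signal was 384, with 210 and 173 in the replicates. It had the shortest distance to a protein-coding TSS among the IDR peaks of chromosome 4. At Asator, the gene of a protein kinase related to tau-tubulin kinases, a peak 516 bp from a TSS had a signal of 367 (198 and 169), and an intronic one 568 bp from a TSS had 219 (123 and 107).

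The remaining 3 IDR peaks of chromosome 4 had ey or ci as the nearest protein-coding gene. The peak 728 bp from a TSS of ey, the Pax6 gene of eye development, had a signal of 210 and 77.7 in replicate 2, and no peak of replicate 3 overlapped it. At ci, which encodes the Gli family effector of Hedgehog signalling, 1 peak lay in the 5' UTR, 134 bp from a TSS (signal 163, with 105.1 and 67.4 in the replicates). The other lay 3322 bp away in an exon of asRNA:CR43957 (signal 194, with 130 and 97.8). The antisense gene starts 32 bp from the first of these summits, and the peaks do not tell which of the overlapping genes they belong to.

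The 2 IDR peaks of ey and PlexA were the ones on chromosome 4 that hold the DRE, the element TATCGATA recognised by Dref and BEAF-32, within 100 bases of the summit. They are shown as 30 bases each, plus strand, with the DRE in capitals.
ey, chr4:696924-696953: tatgagtttccTATCGATAtggaagaaaac
PlexA, chr4:1027360-1027389: gttttctttaaTATCGATAgtgtgatgaga
The DRE was found on either strand in 2 of 52 windows of chromosome 4 (3.85%, interval 0.469 to 13.2%), in 0 of 63 pericentric windows (upper end of the interval 5.69%), and in 1.17% of all 30000 windows. The M1BP consensus GGTCACACT was present in 1 window of chromosome 4 and 0 pericentric ones, against 0.607% of all windows. The letters GAGAGA were present in 3 and 4 windows against 9.11% of all. The shorter BEAF-32 word CGATA, which is part of the DRE, was present in 16 of 52 (30.8%) and 17 of 63 (27.0%) against 22.8%. CACACACA was present in 2 and 6 windows against 5.52%. These matches are descriptions of the sequence and not of binding by those factors.

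In pericentric DNA the strongest peaks were on X, within genes of a sugar transferase, a chitin-modifying enzyme and a gastrulation signal. Some of them lay closer to the start of a non-coding gene. At FucTC, a fucosyltransferase gene, a peak in the 5' UTR (X:23010723 to 23010867) had a signal of 277, with 140 in replicate 2 and 132 in replicate 3. Its summit was 488 bp from the TSS of FucTC and 157 bp from that of lncRNA:CR45010. In an intron of Cda4, a chitin deacetylase gene, a peak 841 bp from a TSS (22631804 to 22631993) had a signal of 276, with 137 in replicate 3 and no overlapping peak in replicate 2. A peak within introns of both CG42346 and fog, which overlap, had a signal of 268 (155 and 123 in the replicates). Its nearest protein-coding TSS, 1317 bp away, was that of CG42346, and the start of mir-2491 was 133 bp away. The gene fog encodes the secreted signal that drives cell constriction during gastrulation.

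A further IDR peak of X lay 397 bp from the TSS shared by stnA and stnB (signal 209, with 111 and 99.5 in the replicates). These genes encode proteins of synaptic vesicle recycling from 1 transcript. Another IDR peak lay 2731 bp from that TSS and 293 bp from the start of asRNA:CR45009 (174, with 69.5 and 113). The sixth lay in introns of fog and CG42346, 1324 bp from a TSS of fog (184, with 85.6 and 98.4). On 3L the only IDR peak of the region lay in the 5' UTR of RpL15, a gene of the large ribosomal subunit, 72 bp from the TSS. Its signal was 170, with 100.8 in replicate 3 and no overlapping peak in replicate 2. Its nearest TSS of any kind, 55 bp away, was that of snoRNA:Me18S-G1358c. On 3R the IDR peak lay in an intron of CG12581, 4551 bp from its TSS (169, with 60.2 and 116.1).

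Below the IDR list the strongest peak of 2L was at CG42748, 4 bp from a TSS in its 5' UTR, with a signal of 143 (64.5 and 76.3 in the replicates). The strongest of 3R below the list lay 64 bp from a TSS of Gfat1, which encodes the first enzyme of hexosamine synthesis (121, with 78.1 and 42.7). On 3L, 3 peaks with signals from 38.1 to 80.5 surrounded the start of l(3)80Fg, all with a replicate 3 peak and none with a replicate 2 peak. Outside 3L both replicates thus held the leading genes of each pericentric region, with Cda4 as an exception on X.

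The peaks formed a few groups rather than being spread along the DNA. With summits linked over gaps of at most 10 kb, the 52 peaks of chromosome 4 formed 11 groups that together span 60.9 kb, and 49 of the peaks (94.2%) shared a group with another. The largest group held 19 peaks within 24.5 kb at PlexB, ci, RpS3A and pan, of which 3 were IDR peaks. PlexB encodes a second plexin, and pan encodes the TCF factor of Wingless signalling. The next held 11 peaks within 15.2 kb at Asator and zfh2, 3 of them IDR peaks. A group of 6 at CaMKII, Zyx and apolpp, which encode a calcium-dependent kinase, zyxin and the main lipoprotein of the blood, held no IDR peak. In the rest of the arms 98.6% of the peaks were linked to another within 10 kb, so such linking is the usual state where peaks are dense.

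On 2L 9 of the 11 peaks lay within 15.3 kb at CG42748 and dunk. On 3R 11 of 17 lay within 12.1 kb at CG12581 and Dsk, the gene of the neuropeptide drosulfakinin, and 5 within 3.61 kb at Gfat1. On X the largest group held 12 of 30 peaks within 35.3 kb at CG12446, CG42346 and fog. The 3 IDR peaks at FucTC and stnB, within 5.77 kb, made the only group whose members were all in the IDR list.

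Of the 115 summits 37 (32.2%, interval 23.8 to 41.5%) lay within 500 bp of a TSS of any gene, against 24.5% of all pooled summits. The share was 16 of 52 (30.8%) on chromosome 4 and 21 of 63 (33.3%) in pericentric DNA, and among the 20 IDR peaks it was 45.0% (interval 23.1 to 68.5%), against 39.2% in the IDR peaks of the rest. The 2 kinds of region differed in the location classes of their summits, counted over all summits with those near a TSS included. On chromosome 4, 46.2% of summits were intergenic (interval 32.2 to 60.5%) and 36.5% intronic (23.6 to 51.04%). In pericentric DNA 14.3% were intergenic (6.75 to 25.4%) and 65.1% intronic (52.0 to 76.7%), and in the rest the shares were 30.97 and 56.0%. The pericentric introns were those of a few genes, such as fog with CG42346, CG42748, CG12581, Gfat1 and lncRNA:CR44997, so these peaks share their hosts.

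Counted over genes, few of those in these regions had a peak at their start. A pooled summit within 500 bp of a TSS was found for 10 of 80 protein-coding genes of chromosome 4 (12.5%, interval 6.16 to 21.8%), with 19 in replicate 2 and 14 in replicate 3, and for 13 of 110 pericentric genes (11.8%, interval 6.45 to 19.4%), with 9 and 26 in the replicates. The background was 36.3% of 13945 genes. An IDR summit was found for 4 genes of chromosome 4 (5%), PlexA, RpS3A, Sox102F and ci, and for 4 pericentric genes (3.64%), FucTC, stnA, stnB and RpL15, where the background was 20.6%. Pericentric X had the highest pooled share with 7 of 23 genes (30.4%, interval 13.2 to 52.9%), and 2L had 1 of 37.

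The gene lists were short, and their counts are given beside 36.3% of all genes and 12.5% of those of chromosome 4 for pooled summits, with no difference from either tested. Among 16 transcription factor and cofactor genes of chromosome 4 the pooled list marked 4: Sox102F, ci, zfh2 (signal 125, 33 bp from a TSS) and pan (signal 143), and the IDR list marked Sox102F and ci. The other 12, which include ey, toy, sv, onecut and pho, had no summit within 500 bp of a TSS, and the IDR peak of ey lay 728 bp away. Of 13 signalling genes PlexA and Asator were marked, the latter through weaker peaks with signals up to 46.4, while Eph, Ephrin, Crk and Actbeta were not. None of 6 genes of synapses and neurons was marked, among them unc-13, Syt7 and mGluR. Of 10 housekeeping genes RpS3A was marked, and ATPsynbeta, eIF4G1 and gw were not. Of 3 muscle and lipid genes apolpp was marked, and the titin-related bt was not. Of 16 pericentric genes fog, su(f), stnA, stnB and RpL15 were marked. Here stnA and stnB share 1 peak, and the peak of fog (signal 71.5) was in the list of replicate 3 only. The peak of su(f) (signal 41.5) overlapped no peak of either replicate list and also marked CG17162. Replicate 3 had another summit 186 bp from a TSS of su(f). The well-studied genes lt, cta, AGO3, Snap25 and vtd, which lie in this DNA, were not.

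Summits in annotated transposable elements were 15 of the 115 (13.04%, interval 7.49 to 20.6%), against a background of 0.327% of all pooled summits. On chromosome 4 there were 10 of 52 (19.2%, interval 9.63 to 32.5%), where 25.1% of the sequence and 14.7% of the uniquely readable positions were annotated as such elements. In pericentric DNA there were 5 of 63 (7.94%, interval 2.63 to 17.6%), where the shares were 15.1 and 11.1%. In the rest there were 83 of 29885 summits (0.278%), where the shares were 4.85 and 0.905%. On chromosome 4 and in pericentric DNA the interval thus held the share of uniquely readable positions, whereas in the rest the share of summits was below it. The intervals take summits as independent, though some on chromosome 4 lay in the same copy, so they are likely too narrow. The rest includes the centromere side of 2R. Uniquely readable positions in such elements numbered 526469 on 2R, against 86982 (3L) to 153910 (X) on the other arms of the rest. The shares were not computed without 2R. None of the 20 IDR peaks had its summit in such an element (upper end of the interval 16.8%), and the signals of the 15 ran from 35.5 to 134. The 5 pericentric ones had -log10 q-values from 0.359 to 0.616.

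On chromosome 4 these peaks rested more on replicate 2. Its list covered all 10 of them and that of replicate 3 covered 4, while of the 5 pericentric ones replicate 2 covered 2 and replicate 3 covered 3. In the separate lists, 11 of 66 summits on chromosome 4 lay in transposable elements in replicate 2 (16.7%, interval 8.62 to 27.9%) and 5 of 55 in replicate 3 (9.09%, interval 3.02 to 19.95%), so the intervals overlap. In pericentric DNA there were 3 of 54 (5.56%) and 4 of 95 (4.21%). Over both regions the share was 6% from replicate 3 alone, less than that of the pooled list by over 1.5 times.

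**Figure D5:**
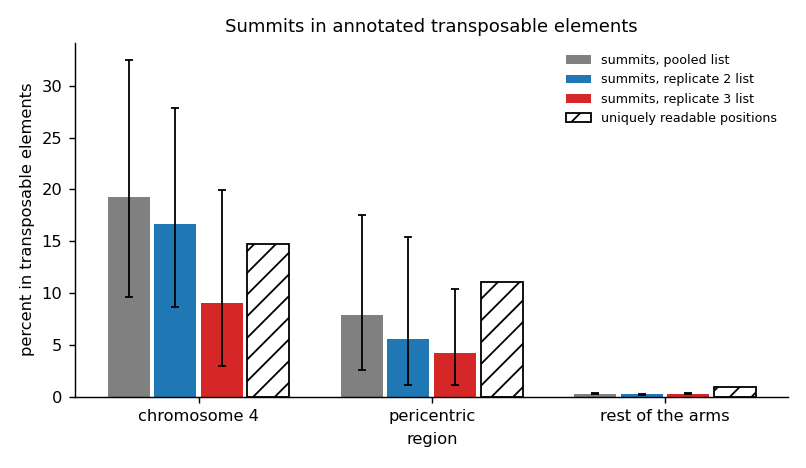
Share of summits in annotated transposable elements on chromosome 4, in pericentric DNA and in the rest of the arms, in the pooled list (grey), replicate 2 (blue) and replicate 3 (red), with exact 95% intervals, beside the share of uniquely readable positions in such elements (hatched). On chromosome 4 the summits reach 19.2, 16.7 and 9.09% beside 14.7% of positions.

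By family, 6 of the 15 summits lay in 1360 copies (5 on chromosome 4 and 1 on 3R), 9 in INE-1 copies (4 on chromosome 4, 2 on 3R, 2 on X and 1 on 2L) and 2 in S elements, DNA transposons with 6 annotated copies on chromosome 4 and 53 in the rest of the arms. A summit at the overlap of 2 copies counts for both families. The summits are not all in separate copies. A 1360 copy in an intron of Rnf11 and an INE-1 copy in introns of Zyx and apolpp each held more than 1 summit. Chromosome 4 carries 60 annotated 1360 copies over 55.6 kb and 344 INE-1 copies over 97.4 kb. All 6 peaks in 1360 copies had a peak in replicate 2, where those at Rnf11 shared 1 peak. Of the 6, that on 3R alone had one in replicate 3. Of the 9 in INE-1 copies each replicate list covered 6.

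The strongest of these lay in a 1360 copy in an intron of ci, 2493 bp from a TSS of this gene, with a signal of 134 in the pooled list, 76.0 in replicate 2 and no overlapping peak in replicate 3. Within 100 bases of its summit 17.5% of positions were uniquely readable, the lowest share of the 115 peaks. A second copy, in an intron of Rnf11, a RING finger gene, held 2 summits, with signals of 101.9 and 69.6. Both peaks overlapped the same replicate 2 peak (signal 45.2) and no peak of replicate 3. The window of the weaker summit, with 63.7% uniquely readable positions, is the one printed. The windows are printed to show the sequence that the copies share. Capitals mark the longest run of bases that is equal in both, 35 bases, on the plus strand.
1360 copy in the ci intron, chr4:53738-53938: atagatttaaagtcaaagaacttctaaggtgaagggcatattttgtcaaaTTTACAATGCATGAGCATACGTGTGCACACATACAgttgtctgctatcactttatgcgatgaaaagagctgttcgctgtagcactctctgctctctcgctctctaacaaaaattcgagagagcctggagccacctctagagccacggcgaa
1360 copy in the Rnf11 intron, chr4:319054-319254: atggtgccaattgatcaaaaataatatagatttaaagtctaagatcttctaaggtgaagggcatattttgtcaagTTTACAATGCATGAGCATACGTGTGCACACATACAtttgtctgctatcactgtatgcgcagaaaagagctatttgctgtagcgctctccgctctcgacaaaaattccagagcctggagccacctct
The window of another 1360 copy, between PlexB and ci (signal 103, with 60.6 in replicate 2 and no overlapping peak in replicate 3), shared 31 bases with each of these. Reads from such shared sequence fit more than 1 copy, and the part of read placement in these peaks was not tested.

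Over all 115 peaks, 10 had a summit window with under 90% uniquely readable positions (8.70%, interval 4.25 to 15.4%), against 0.647% of all pooled peaks. Of these 7 were on chromosome 4 and 3 in pericentric DNA, and replicate 2 covered 7 and replicate 3 covered 3. From replicate 3 alone the share was 4%. In 102 of the 115 windows every position was uniquely readable, and all 20 IDR peaks were among them.

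The mean A+T content at the summits lay within 1 SD over peaks of that of the rest of the arms. The flanks on chromosome 4 differed more from those of the rest. Within 50 bases of the summit it was 65.4% ± 8.28 (SD over 52 peaks) on chromosome 4, and 67.4% ± 6.48 in windows at 1000 bp on either side. The summit exceeded its own flanks at 24 of 52 peaks, with a mean difference of -1.97 percentage points ± 10.7. In pericentric DNA the values were 62.5% ± 10.2 and 63.1% ± 7.07 (63 peaks), and the summit was higher at 32. In the rest they were 61.2% ± 10.4 and 58.5% ± 7.24, a mean difference of 2.78 percentage points ± 12.3. The mean summits of all 3 groups were thus within 1 SD of each other. So were the flanks of pericentric DNA and of the rest, while those on chromosome 4 exceeded the rest by more than 1 SD. This SD is the spread of single peaks and does not measure whether group means are alike. Over the whole sequence the A+T content was 64.8% on chromosome 4, 60.1% in pericentric DNA and 57.6% in the rest.

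Among the IDR peaks the mean summits again lay within 1 SD over peaks of that of the rest. The flanks of pericentric DNA did so too, and those of chromosome 4 did not. In the rest the summits had 66.7% ± 9.73 and the flanks 58.2% ± 7.58, a mean difference of 8.56 percentage points. The 12 IDR peaks of chromosome 4 had 64.8% ± 7.76 and 69.3% ± 4.49, a mean difference of -4.50 percentage points ± 10.1, with 5 of 12 summits above their flanks. The 8 pericentric IDR peaks had 67.5% ± 3.06 and 61.4% ± 8.14, a difference of 6.00 percentage points ± 9.003, with 7 of 8 above. On chromosome 4 the strong summits thus stood in DNA of similar or higher A+T content, and in pericentric DNA most of them stood above it.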

How the data were processed

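The 2 samples are 1 group, numbered by the labels. Per the labels, sonication gave fragments of 200 to 800 bp, and positions are on dm6. The authors deposited narrowPeak lists called on each replicate and on both together, and an IDR list. Each peak has a signal and a -log10 q-value, both as deposited by the authors, and the sources used here name neither the scale of the signal nor the aligner or caller. The control alignments are not analysed here. The files give no read totals, so depth is unknown, and signals were compared within a list. The number of per-sample columns left unused was 0.

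Regions were assigned by the summit. Genes and transposable elements came from Ensembl release 115 and sequence from RefSeq release 6. Words of 31 bases occurring once in the assembly defined uniquely readable positions. A+T content used 101 bp and motifs and repeats 201 bp around the summit. The IDR list holds the 7029 strongest pooled peaks. Location classes and TSS windows of 500 bp used all transcripts. A transposable element held a summit when its annotated interval covered it. Shares have exact Clopper-Pearson 95% intervals, which cover counting error only and take the peaks as independent, though some overlap. With 1 group no test over samples was possible, and none was made over peaks. The members, gene lists and the naming rule were chosen with earlier results of these data known. The named peaks are the IDR peaks of chromosome 4, up to the 10 strongest of chromosome 4 and the 5 strongest of each pericentric region, and up to 4 marked genes of each list, and some of these are not described. Other peaks and genes were named as examples after their values were seen. The counting code was tested on simulated data. Alternatives were each replicate's list alone, IDR peaks, shifted borders, shorter words and other windows and overlaps. Python 3.11.15, numpy 2.4.6, pandas 2.3.3, scipy 1.17.1 and matplotlib 3.10.9 were used.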

Additional observations from a re-analysis of the deposited data

How the results depend on the processing

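Each of 13 results was recomputed under alternatives, 59 values in all, of which 33 stayed within the fold of 1.5 for counts and densities or within the error of the main value, and 26 moved. Both regions stayed below the rest in density in all 3 lists and among IDR peaks, while the levels depended on the list and the borders. With IDR peaks alone the density per Mb was 1.54 for all 115 places together, 9.01 on chromosome 4 and 0.688 in pericentric DNA, and per uniquely readable Mb it was 3.48, 10.7 and 1.73. With borders moved 500 kb toward the centromere, 58 peaks were left, at 5.29 per Mb and 13.1 per uniquely readable Mb over all, and 0.623 and 1.81 in pericentric DNA. From 1 replicate list alone the pericentric density ranged from 4.64 to 8.17 per Mb and from 11.7 to 20.6 per uniquely readable Mb. The same range was 52.0 to 57.5% for the share of 1 replicate's peaks found in the other list, 6 to 11.7% for summits in transposable elements and 4 to 6.67% for repeated windows.

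With the IDR list limited to its stronger 50% the share of the 115 peaks was 6.09%. The share in both replicate lists was 47.0% with a reciprocal overlap of 50% and 13.04% among as many of the strongest peaks of each list as the IDR list holds. The share near a TSS was 18.3% within 200 bp, 47.0% within 1000 bp and 45.0% for IDR peaks. The share in transposable elements was 20.9% for any overlap of the whole peak and 0% for IDR peaks. The share of repeated windows was 0.870% at under 50% unique positions and 0% for IDR peaks. Where no construction shows it, the cause was not tested. No paired analysis was possible because the series has 1 group, so its replicate numbers pair no samples. Depth is unknown, so weak or absent peaks cannot be set against read number.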
